A study of Homo sapiens with 60 samples.

Results

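The 10 genes described here encode carriers that move amino acids across the plasma membrane: SLC7A11, SLC7A5, SLC3A2, SLC43A1, SLC7A1, SLC1A4, SLC1A5, SLC38A1, SLC38A2 and SLC6A9. They were taken by name from the 60675 gene IDs of the count table, and all 10 were found, had counts in every library and entered every test. mRNA was sequenced from A549, an established cell line from a human non-small cell lung carcinoma grown in RPMI with serum, 24 h after a herbal extract or vehicle was added. The 60 libraries formed 25 groups, all of this line.

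The vehicle group (n = 3) received DMSO, at 0.1% in the sample labels and at 2% in the series text. Water extracts of Sayeok-tang (n = 3 per dose) and Bojungikgi-tang (n = 2 per dose), which are multi-herb formulas, were given at 500, 100 and 20 µg/mL. Extracts made in 70% ethanol from Zingiberis Rhizoma Recens (fresh ginger), Zingiberis Rhizoma (dried ginger) and Pinelliae Tuber had these doses too (n = 3 each). The ethanol extract of Scutellariae Radix was used at doses of 190, 38 and 7.6 µg/mL (n = 3 each). Those of Coptidis Rhizoma, at 110, 22 and 4.4 µg/mL, and Zizyphi Fructus, at 500, 100 and 20 µg/mL, had 1 library per dose. Per the series text, an extract whose IC20 (the concentration giving 20% inhibition) lay under 500 µg/mL was given at its IC20 and at 2 dilutions of it, which is the case for the doses of Scutellaria and Coptis.

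Amino acids are charged or polar and enter cells through membrane carriers, each with its own set of substrates. Exchangers swap an amino acid outside for one inside, sodium-coupled carriers concentrate their substrates, and several light chains work only when joined to the heavy chain SLC3A2. Many carrier genes are known targets of ATF4, a transcription factor made when eIF2-alpha kinases sense amino acid shortage or stress, and SLC7A11 is also a known target of NRF2, which is constitutively active in A549 through a KEAP1 mutation.

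Between 17.51 M and 38.54 M counts were assigned per library (M stands for mega; median 23.53 M). Mitochondrial transcripts took 8.29 to 15.9% of counts, and the second library of the medium dose of fresh ginger lay farthest from its group (median gap 0.122 on the log2 scale). Of the cell markers examined, the summed level of 7 epithelial genes ran from 3688 to 6722 CPM (counts per 1 M of the scaled library total). The KRT8 and KRT18 keratins made up most of that sum, while EPCAM averaged 5.04 CPM. Of the leukocyte markers PTPRC averaged 0.00479 CPM and CD3E was at 0 in every library, with CD14 at 1.58. Endothelial PECAM1 averaged 0.0243 CPM, fibroblast COL1A2 0.0199 beside COL1A1 at 28.7, and alveolar SFTPC 0.0340 CPM. Separate cultures are not named for the replicates, so the p-values reflect spread between libraries that may be technical. The vehicle libraries carry a different set number from the extract libraries in the labels. Handling and treatment thus cannot be told apart in a comparison with vehicle. The set number also differs between extract pairs: the formulas, the ginger extracts, Pinellia with Scutellaria, and Coptis with Zizyphus. Set and extract cannot be told apart across these pairs. Comparisons between doses of 1 extract do not use the vehicle level. In bulk RNA, fewer cells that make a transcript and less of it per cell cannot be told apart.

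Promoter windows from RefSeq on GRCh38.p14 (250 bases before to 50 after a start) were found for 9 of the 10 genes, 16 windows in all. SLC7A11 had no entry. They were searched on both strands for the core of the C/EBP-ATF response element, TGATGNAA, to which ATF4 binds with a partner, and for the core of the antioxidant response element, TGACNNNGC, to which NRF2 binds with a small MAF protein. The first was in 5 of the 16 windows, of 5 different genes, against 3.62% of all 35116 windows of that length, and the second in 4 of the 16, against 13.3% of all windows. The stretches around all matches are shown so that the letters can be compared between genes. Each runs 5′ to 3′ on the strand of its gene, with the match in capitals and at most 30 bases in all.
SLC1A4 (chr2:64989381-64989410, plus strand; match on the opposite strand): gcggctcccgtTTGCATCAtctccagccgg
SLC1A5 (chr19:46784893-46784922, minus strand; match on the same strand): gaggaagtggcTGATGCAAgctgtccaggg
SLC38A1 (chr12:46266502-46266531, minus strand; match on the same strand): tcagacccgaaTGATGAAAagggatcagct
SLC7A1 (chr13:29595663-29595692, minus strand; match on the same strand): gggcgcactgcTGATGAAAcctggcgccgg
SLC3A2 (chr11:62881725-62881748, plus strand; match on the opposite strand): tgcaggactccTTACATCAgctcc
The 4 matches of the antioxidant core follow, in the same form.
SLC7A5 (chr16:87869490-87869519, minus strand; match on the same strand): gcggggttccTGACGCAGCtgcgggcggcg
SLC3A2 (chr11:62881652-62881681, plus strand; match on the same strand): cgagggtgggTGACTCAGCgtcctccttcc
SLC1A5 (chr19:46787385-46787414, minus strand; match on the opposite strand): cctggatcttGCGAGGTCAgctcccgctcc
SLC7A1 (chr13:29595754-29595783, minus strand; match on the same strand): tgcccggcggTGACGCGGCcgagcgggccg
The first-core matches of SLC1A4, SLC1A5 and SLC38A1 began 7, 97 and 4 bases before an annotated start. Those of SLC7A1 and SLC3A2 began at positions 8 and 38 after such a start. SLC1A4, SLC1A5, SLC38A1 and SLC3A2 also had windows at other annotated starts, and these did not hold the first core. Of the 10 carriers, 8 rose with at least 2 extracts at the high dose, among them SLC7A11, which had no window. Of the 5 genes with the first core, 4 rose. Of those with a window but without the first core, SLC6A9, SLC38A2 and SLC43A1 rose and SLC7A5 did not against vehicle. SLC6A9, SLC38A2 and SLC43A1 had neither core in their windows. Whether either core goes with a rise was not tested. Of the 4 genes with the second core, SLC1A5 and SLC7A1 rose and SLC7A5 and SLC3A2 did not against vehicle. A match describes letters in a window and does not show that a factor binds there.

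In vehicle, levels per kilobase of exon differed widely among the 10 carriers. SLC7A5 stood at 859 ± 44.8 CPM per kilobase (SD, n = 3), rank 31 of 27050 genes. It is the LAT1 light chain, which exchanges large neutral amino acids such as leucine. SLC3A2, its heavy chain, had 214 ± 2.92 CPM per kilobase and the glutamine exchanger SLC1A5 had 158 ± 2.43. The cystine carrier SLC7A11 (57.0 ± 2.88), the sodium-coupled neutral carriers SLC38A2 (40.8 ± 0.859) and SLC38A1 (37.1 ± 2.82) and the arginine carrier SLC7A1 (18.4 ± 1.31) formed a middle range in CPM per kilobase. SLC1A4, which carries alanine, serine and cysteine, had 5.23 ± 0.0925. The glycine carrier SLC6A9 (1.80 ± 0.0548) and the large neutral carrier SLC43A1 (1.07 ± 0.0749) were the lowest of the 10. With high-dose dried ginger and Scutellaria the 3 least abundant carriers per kilobase showed the largest log2 changes against vehicle, and the 2 most abundant the smallest.

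**Figure D1:**
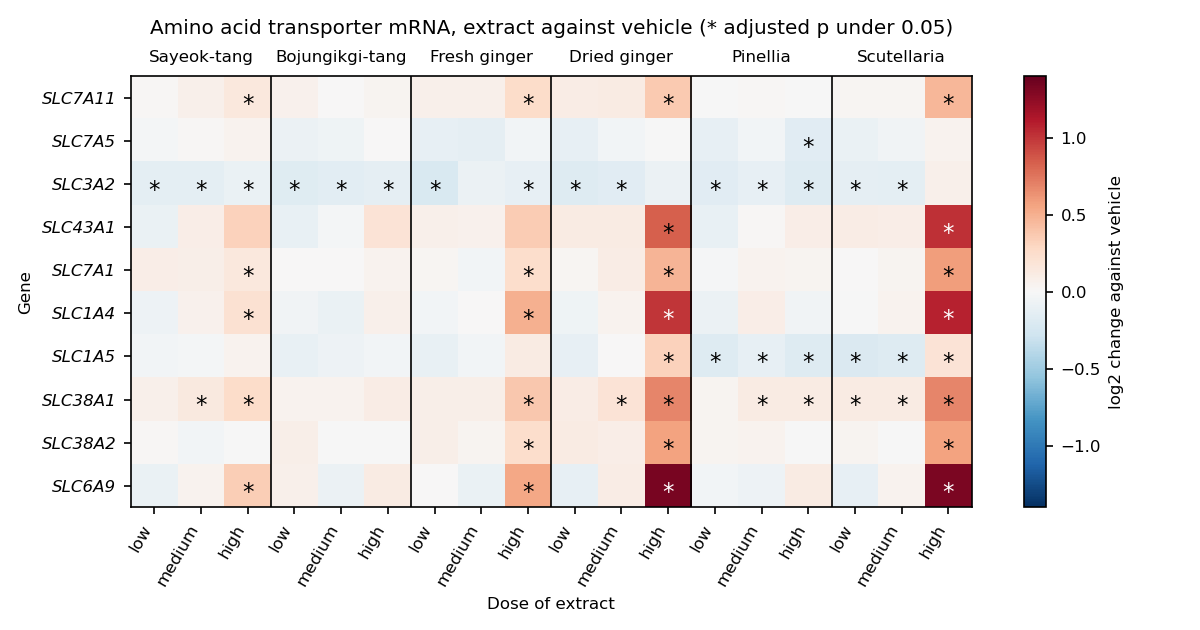
Log2 change of each carrier (rows) against vehicle for 3 doses of 6 extracts (columns), with red for higher, blue for lower and an asterisk for an adjusted p under 0.05. The strong red is at the high doses of dried ginger and Scutellaria, where SLC6A9 was 1.33 and 1.32, while SLC3A2 is pale blue in most columns.

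Against vehicle, 8 of the 10 carriers rose with the high dose of dried ginger and 8 with that of Scutellaria, 6 rose and 1 fell with fresh ginger, and 5 rose and 1 fell with Sayeok-tang. Calls are genes with an adjusted p under 0.05 in edgeR's quasi-likelihood test, with Benjamini-Hochberg adjustment over every gene tested. The background was high: the same test called 39.2% of all genes with dried ginger (20.2% higher only), 40.3% with Scutellaria (20.2% higher only), 13.4% with fresh ginger (6.21% higher only) and 18.9% with Sayeok-tang (9.39% higher only). Bojungikgi-tang had 1 of 10 lower (3.73% of all genes called) and Pinellia 1 higher and 3 lower (8.93% of all genes called). The median log2 change of the 10 carriers was 0.52 with dried ginger, 0.57 with Scutellaria, 0.26 with fresh ginger and 0.15 with Sayeok-tang, where the median of all genes was 0.00 to 0.01 in size. These 6 comparisons share the 3 vehicle libraries.

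Rises also appeared between doses of 1 extract, which leaves the vehicle level out but uses the same high-dose libraries. The direction differed for SLC3A2, which fell against vehicle with fresh ginger and Sayeok-tang. From low to high dose it rose with Scutellaria and dried ginger. All 10 carriers were higher at the high than at the low dose of Scutellaria (31.0% of all genes called, 15.5% higher only) and 9 of 10 at that of dried ginger (32.8% called, 16.8% higher only). With fresh ginger 7 of 10 were higher (3.67% called, 1.72% higher only) and with Sayeok-tang 6 of 10 (7.58% called, 3.82% higher only). For fresh ginger the count was 4 without the first library of its high dose. The median log2 change of the 10 carriers from low to high dose was 0.55 with Scutellaria, 0.45 with dried ginger, 0.21 with fresh ginger and 0.11 with Sayeok-tang. With Bojungikgi-tang (0.712% of all genes called) and with Pinellia (0.0663%) edgeR called 0 of 10 between these doses, with 3 and 1 at an unadjusted p under 0.05 and 0 by DESeq2 in both.

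Medium and low doses did not separate for these genes. The edgeR test called 0 of 10 in each of the 6 extracts, where it called 0.239% of all genes with Sayeok-tang, 0% with Bojungikgi-tang, 0.0662% with fresh ginger, 0.565% with dried ginger, 0.0302% with Pinellia and 0.0302% with Scutellaria. At an unadjusted p under 0.05 the carriers past the test numbered 1, 1, 1, 3, 2 and 0 in that order, and DESeq2 called 1 with fresh ginger and 0 with the others. Against vehicle, the medium dose gave calls for 2 of 10 with Sayeok-tang (10.8% of all genes called), 1 with Bojungikgi-tang (1.94%), 0 with fresh ginger (0.770%; 2 at an unadjusted p under 0.05, 0 by DESeq2), 2 with dried ginger (6.15%), 3 with Pinellia (7.17%) and 3 with Scutellaria (8.90%). The low dose gave 1, 1, 1, 1, 2 and 3 in the same order, against 8.34%, 6.94%, 6.48%, 3.60%, 5.51% and 8.89% of all genes. All calls at these doses were of 3 genes: SLC3A2 and SLC1A5, lower, and SLC38A1, higher. At the medium dose 1 library decided several counts: 0 carriers were called with Pinellia without replicate 2 of that dose, 0 with Bojungikgi-tang without its replicate 2, and 0 with dried ginger without its replicate 2 or without the third vehicle library. With Sayeok-tang the medium-dose count was 4 without the first vehicle library, and 1 without the third vehicle library or without replicate 1 or 3 of that dose. With fresh ginger it was 1 without replicate 2 of that dose. At the low dose it was 2 with Sayeok-tang without the first vehicle library and 2 with Bojungikgi-tang without the third.

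SLC7A11 (ENSG00000151012, chromosome 4, 138164097 to 138242349 on GRCh38 as for all genes here, minus strand) encodes xCT, which imports cystine in exchange for glutamate and so feeds glutathione synthesis. Its level was 573, 558 and 519 CPM in vehicle. Scutellaria at 190 µg/mL had 736, 792 and 762 CPM, dried ginger at 500 µg/mL 697, 695 and 738, fresh ginger 687, 640 and 649, and Sayeok-tang 610, 620 and 611 CPM. In these 4 groups every library lay above every vehicle library. Dried ginger, fresh ginger and Sayeok-tang, at 1 dose, followed in that order without overlap. The difference between dried and fresh ginger was 0.11 on the log2 scale and was not past the edgeR test (adjusted p = 0.0876). Sayeok-tang carries a different set number from the ginger extracts and was not tested against them. The log2 changes against vehicle were 0.47 ± 0.04 (SE) for Scutellaria (adjusted p = 2.48e-13), 0.37 ± 0.04 for dried ginger (adjusted p = 1.26e-07), 0.26 ± 0.04 for fresh ginger (adjusted p = 0.000181) and 0.15 ± 0.03 for Sayeok-tang (adjusted p = 0.000596). Bojungikgi-tang at 500 µg/mL (565 and 571 CPM) and Pinellia (555, 556 and 524 CPM) lay inside the vehicle range and were not called. From low to high dose SLC7A11 rose by 0.44 ± 0.04 with Scutellaria, 0.27 ± 0.04 with dried ginger, 0.19 ± 0.04 with fresh ginger and 0.13 ± 0.03 with Sayeok-tang. The fresh ginger call was kept in 9 of 11 alternatives (adjusted p = 0.0932 without the first high-dose library) and the Sayeok-tang call in 10 of 11 (adjusted p = 0.0716 without the second low-dose library). SLC7A11-AS1, on the opposite strand with exons that overlap, averaged 4.26 CPM and was called in none of the 12 comparisons of a high dose with vehicle or with the low dose. The library kit keeps strand, but whether counting used it is not given in the sources used here.

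SLC7A5 (ENSG00000103257, chromosome 16, 87830023 to 87869488, minus strand), the LAT1 light chain, was called in 1 of 18 comparisons with vehicle. Vehicle libraries had 4316, 3989 and 3918 CPM, Scutellaria at 190 µg/mL 4155, 4208 and 4306, and dried ginger at 500 µg/mL 4109, 4061 and 3941 CPM. These groups overlapped. Its log2 changes of 0.05 ± 0.04 and -0.01 ± 0.04 were not past the test (adjusted p = 0.264 and 0.831). The high dose of Pinellia had 3687, 3589 and 3701 CPM, all below vehicle, a fall by 0.16 on the log2 scale (adjusted p = 0.00429). Against its own low dose, Scutellaria at 190 µg/mL was higher by 0.14 ± 0.04 (adjusted p = 0.00182). Its log2 change against vehicle was below 0 in 15 of the 18 extract doses.

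The heavy chain SLC3A2 (ENSG00000168003, chromosome 11, 62856102 to 62888875, plus strand), also known as 4F2hc or CD98, was lower than in vehicle in 15 of 18 comparisons and higher in 0. Vehicle libraries had 1094, 1108 and 1124 CPM. At the low doses, fresh ginger had 964, 978 and 936 CPM, dried ginger 964, 960 and 1006, and Bojungikgi-tang 988 and 981. Low-dose Sayeok-tang had 1010, 1035 and 972 CPM, Pinellia 994, 993 and 990, and Scutellaria 997, 1012 and 1038. Every one of these low-dose libraries lay below every vehicle library. The gene fell at the low dose by 0.21 on the log2 scale with fresh ginger (adjusted p = 0.00140), 0.18 with dried ginger (0.00623), 0.17 with Bojungikgi-tang (0.00113), 0.16 with Pinellia (0.00115), 0.14 with Sayeok-tang (0.00193) and 0.13 with Scutellaria (adjusted p = 0.00629). Of the medium-dose calls, those with Bojungikgi-tang, Pinellia and dried ginger were lost without replicate 2 of the dose (adjusted p = 0.276, 0.138 and 0.0581). The share of all genes called lower at the low dose was 3.63% with fresh ginger, 2.14% with dried ginger, 4.19% with Bojungikgi-tang, 3.46% with Pinellia, 4.76% with Sayeok-tang and 5.02% with Scutellaria. The vehicle libraries are common to all of these comparisons, so they are not independent of each other.

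At the high doses SLC3A2 lay on different sides of vehicle, and Scutellaria was not tested against the other extracts. Scutellaria at 190 µg/mL had 1201, 1149 and 1147 CPM, all above vehicle, with a log2 change of 0.07 ± 0.03 that was not past the test (adjusted p = 0.0582). Dried ginger at 500 µg/mL had 1058, 1051 and 1047 CPM, all below vehicle, at -0.08 ± 0.04 (adjusted p = 0.104). The gene fell by 0.09 with Sayeok-tang, 0.13 with Bojungikgi-tang, 0.11 with fresh ginger and 0.18 with Pinellia, with adjusted p = 0.0217, 0.0163, 0.0455 and 0.000258. Only the Pinellia call was kept in all alternatives: the Sayeok-tang call was kept in 5 of 11 (adjusted p = 0.119 without the third high-dose library), the Bojungikgi-tang call in 7 of 10 (0.113 without high-dose replicate 2) and the fresh ginger call in 4 of 11 (adjusted p = 0.165 without the second high-dose library). From low to high dose SLC3A2 rose by 0.20 ± 0.03 with Scutellaria (adjusted p = 2.07e-06) and by 0.11 ± 0.04 with dried ginger (adjusted p = 0.0284, kept in 6 of 11 alternatives and at 0.0977 without the second low-dose library). With Scutellaria at 190 µg/mL against 7.6 µg/mL, SLC7A11 rose by 0.44, SLC3A2 by 0.20 and SLC7A5 by 0.14 on the log2 scale, and the differences between these genes were not tested.

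SLC43A1 (ENSG00000149150, chromosome 11, 57484534 to 57515786, minus strand), or LAT3, carries large neutral amino acids without a heavy chain. Its counts were the lowest of the 10 genes, 69 to 250 per library, which limits its precision. Vehicle had 4.05, 3.52 and 3.80 CPM, dried ginger at 500 µg/mL 6.23, 7.84 and 6.36, and Scutellaria at 190 µg/mL 7.75, 7.44 and 7.80 CPM, so both groups lay above vehicle. The rise was 0.84 ± 0.12 on the log2 scale with dried ginger (adjusted p = 1.69e-06) and 1.02 ± 0.10 with Scutellaria (adjusted p = 1.49e-10). Fresh ginger (0.36 ± 0.13, adjusted p = 0.0598) and Sayeok-tang (0.32 ± 0.12, adjusted p = 0.0615) did not pass against vehicle. Against its low dose, Sayeok-tang was higher by 0.41 ± 0.13 (adjusted p = 0.0415, kept in 6 of 11 alternatives and at 0.240 without the third low-dose library).

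SLC7A1 (ENSG00000139514, chromosome 13, 29509410 to 29595688, minus strand), or CAT1, is the main carrier of arginine and lysine in many cell types. It had 150, 144 and 130 CPM in vehicle. Scutellaria at 190 µg/mL had 201, 217 and 219 CPM, dried ginger at 500 µg/mL 196, 197 and 200, fresh ginger 174, 168 and 160, and Sayeok-tang 155, 161 and 155. All 4 groups lay above vehicle. The log2 changes were 0.59 ± 0.04 (adjusted p = 1.12e-15), 0.48 ± 0.05 (1.83e-08), 0.25 ± 0.05 (0.00192) and 0.15 ± 0.04 (adjusted p = 0.00513) in that order. The Sayeok-tang call was kept in 10 of 11 alternatives and lost without the third vehicle library (adjusted p = 0.0602). From low to high dose SLC7A1 rose with Scutellaria (0.58 ± 0.04), dried ginger (0.45 ± 0.05) and fresh ginger (0.22 ± 0.05), the last kept in 9 of 11 alternatives (adjusted p = 0.0873 without the first high-dose library). With Sayeok-tang that change was 0.06 ± 0.04 and not past the test.

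**Figure D2:**
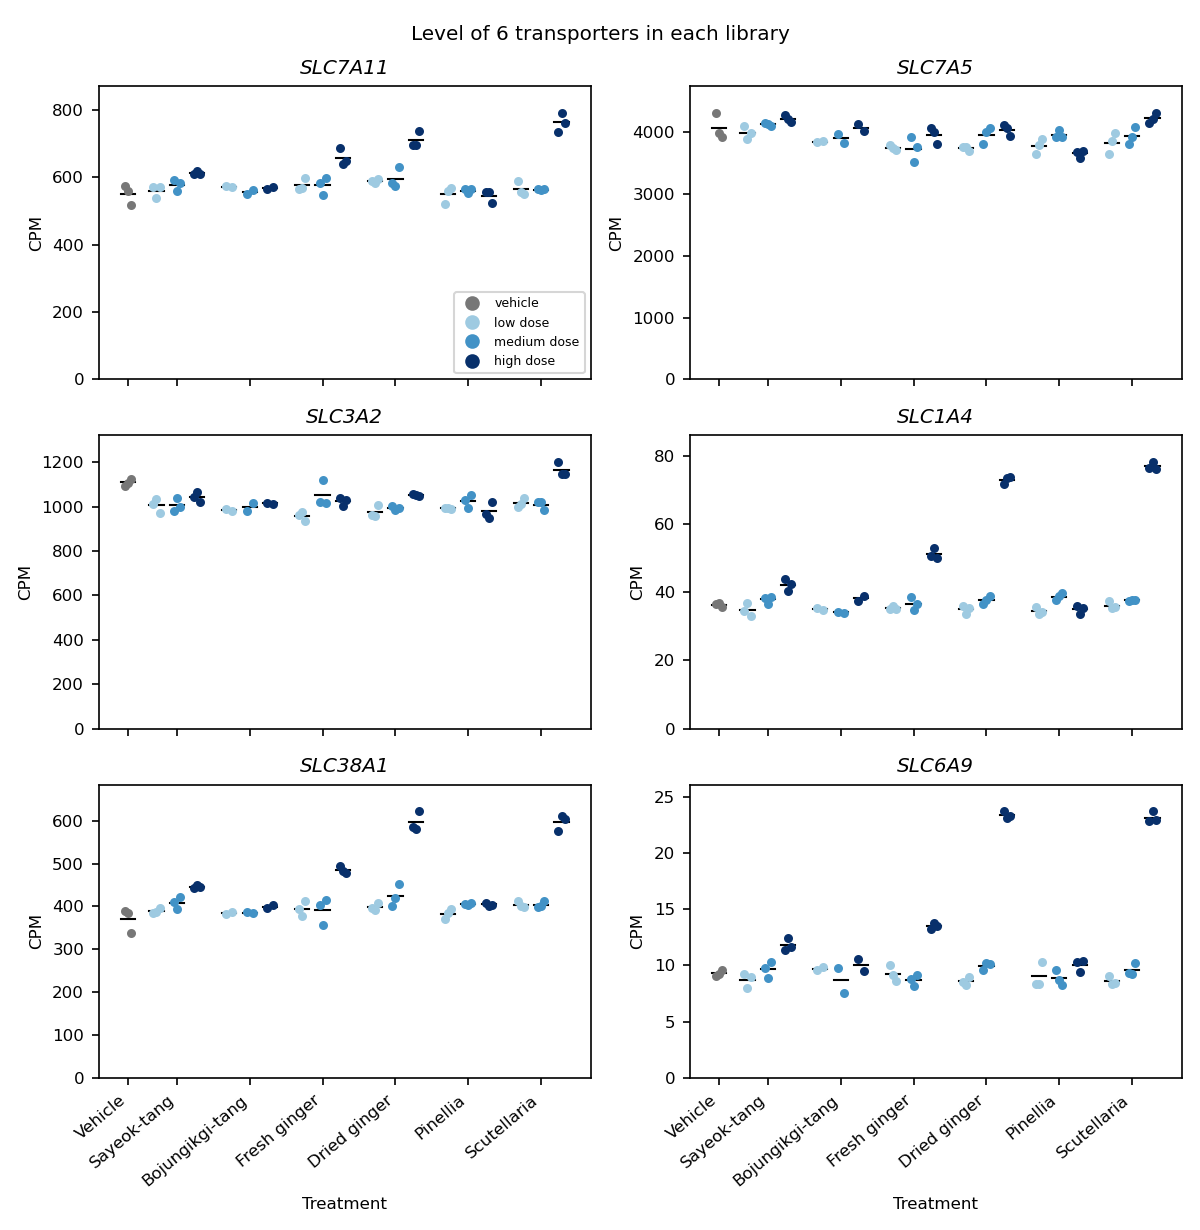
Level of 6 carriers in CPM (vertical axes start at 0) in each library (points) of vehicle and 6 extracts at 3 doses, with black lines for group means. For SLC1A4 and SLC6A9 the high doses of dried ginger and Scutellaria stand apart from all other groups, whereas SLC7A5 runs level across groups.

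SLC1A4 (ENSG00000115902, chromosome 2, 64988477 to 65023865, plus strand), or ASCT1, exchanges alanine, serine, cysteine and threonine. Vehicle libraries were close together, at 36.5, 36.8 and 35.6 CPM. Scutellaria at 190 µg/mL had 76.3, 78.1 and 76.1 CPM, dried ginger at 500 µg/mL 71.8, 73.4 and 73.6, fresh ginger 50.7, 52.8 and 50.0, and Sayeok-tang 43.8, 40.4 and 42.4 CPM. All 4 groups lay above vehicle, and the 3 of them given 500 µg/mL did not overlap each other. Sayeok-tang, of another set number, was not tested against the ginger extracts. The rise was 1.08 ± 0.04 on the log2 scale with Scutellaria (adjusted p = 2.30e-23), 1.00 ± 0.04 with dried ginger (6.14e-17), 0.50 ± 0.04 with fresh ginger (6.84e-09) and 0.21 ± 0.04 with Sayeok-tang (adjusted p = 0.000581). Against the low dose of the same extract it rose by 1.09 ± 0.04, 1.06 ± 0.04, 0.54 ± 0.04 and 0.28 ± 0.05, all past the test under every alternative. Bojungikgi-tang at 500 µg/mL had 37.5 and 38.8 CPM and Pinellia 35.9, 33.7 and 35.4, neither called.

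SLC1A5 (ENSG00000105281, chromosome 19, 46774883 to 46788594, minus strand), or ASCT2, is a major route of glutamine into proliferating cells. It moved in both directions. Vehicle had 535, 519 and 529 CPM, dried ginger at 500 µg/mL 668, 678 and 634, and Scutellaria at 190 µg/mL 601, 597 and 612, all above vehicle. The medium dose of Scutellaria had 457, 462 and 479 CPM and its low dose 455, 448 and 479, all below vehicle. Pinellia was also below vehicle in every library, with 481, 452 and 461 CPM at its high dose and 466, 452 and 479 at its low dose. The rise at the high dose was 0.32 ± 0.04 on the log2 scale with dried ginger (adjusted p = 1.05e-06) and 0.19 ± 0.03 with Scutellaria (adjusted p = 2.87e-06). SLC1A5 fell by 0.20 at the low dose of Scutellaria (adjusted p = 0.000122), by 0.18 at the low dose of Pinellia (0.000395) and by 0.18 at its high dose (adjusted p = 0.000244). Its call at the medium dose of Pinellia was lost without replicate 2 of that dose (adjusted p = 0.0637). Between the low and high dose of Scutellaria it rose by 0.39 ± 0.03 (adjusted p = 5.67e-13), of dried ginger by 0.45 ± 0.04, of fresh ginger by 0.21 ± 0.04 and of Sayeok-tang by 0.09 ± 0.03. The last 2 calls were kept in 10 and 4 of 11 alternatives, with adjusted p = 0.0547 without the first high-dose library of fresh ginger and 0.212 without the third low-dose library of Sayeok-tang.

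SLC38A1 (ENSG00000111371, chromosome 12, 46183063 to 46270017, minus strand) and SLC38A2 (ENSG00000134294, chromosome 12, 46358189 to 46372867, minus strand), or SNAT1 and SNAT2, take up glutamine, alanine and other small neutral amino acids with sodium. SLC38A1 had 390, 386 and 339 CPM in vehicle, so the third vehicle library was the lowest. Dried ginger at 500 µg/mL had 585, 581 and 622 CPM, Scutellaria at 190 µg/mL 577, 611 and 603, fresh ginger 494, 482 and 479, and Sayeok-tang 444, 449 and 445. All 4 groups lay above vehicle, and the 3 of them given 500 µg/mL did not overlap each other. Sayeok-tang, of another set number, was not tested against the ginger extracts. The rise of SLC38A1 was 0.68 ± 0.05 with dried ginger (adjusted p = 7.61e-11), 0.68 ± 0.04 with Scutellaria (2.37e-18), 0.38 ± 0.05 with fresh ginger (1.77e-05) and 0.26 ± 0.04 with Sayeok-tang (adjusted p = 2.46e-06) on the log2 scale. It was called higher than vehicle in 10 of 18 extract doses. Of these, the calls at the high dose of Pinellia (0.12 ± 0.04), at the medium dose of Sayeok-tang, dried ginger, Pinellia and Scutellaria (0.14, 0.19, 0.12 and 0.12) and at the low dose of Scutellaria (0.12 ± 0.04) were lost without the third vehicle library, with adjusted p = 0.317, 0.154, 0.253, 0.350, 0.318 and 0.381.

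SLC38A2 lay at 271, 274 and 263 CPM in vehicle and at 271, 271 and 263 CPM with Sayeok-tang at 500 µg/mL, a change of -0.01 ± 0.03. It is the carrier of the pair best known for induction by amino acid shortage. Dried ginger at 500 µg/mL had 388, 385 and 414 CPM, Scutellaria at 190 µg/mL 389, 403 and 399, and fresh ginger 320, 311 and 331, all above vehicle. SLC38A2 rose by 0.56 ± 0.04 with dried ginger (adjusted p = 6.63e-12), 0.56 ± 0.03 with Scutellaria (4.04e-18) and 0.25 ± 0.04 with fresh ginger (adjusted p = 9.02e-05). In Sayeok-tang, SLC38A1 was thus called higher and SLC38A2 was not. The difference between the genes was not tested. From low to high dose SLC38A2 rose by 0.52 ± 0.03 with Scutellaria, 0.43 ± 0.04 with dried ginger and 0.17 ± 0.04 with fresh ginger, the last kept in 8 of 11 alternatives (adjusted p = 0.0750 without the third high-dose library).

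SLC6A9 (ENSG00000196517, chromosome 1, 43991500 to 44031467, minus strand), or GlyT1, takes up glycine with sodium and chloride and showed the largest log2 change of the 10 genes in both ginger extracts and in Scutellaria. Vehicle had 9.06, 9.22 and 9.61 CPM. Dried ginger at 500 µg/mL had 23.7, 23.1 and 23.3 CPM, Scutellaria at 190 µg/mL 22.8, 23.7 and 22.9, fresh ginger 13.2, 13.8 and 13.5, and Sayeok-tang 11.4, 12.4 and 11.6. All 4 groups lay above vehicle, and dried ginger lay above fresh ginger in every library. The rise was 1.33 ± 0.06 on the log2 scale with dried ginger (adjusted p = 6.04e-16), 1.32 ± 0.07 with Scutellaria (9.65e-18), 0.54 ± 0.07 with fresh ginger (2.21e-06) and 0.34 ± 0.09 with Sayeok-tang (adjusted p = 0.00369). Of all genes tested, 1.35% with dried ginger and 0.796% with Scutellaria changed by as much or more in size. Against the low dose of the same extract SLC6A9 rose by 1.45 ± 0.07, 1.43 ± 0.08, 0.55 ± 0.07 and 0.43 ± 0.09. CCDC24, which overlaps it on the opposite strand and averaged 4.23 CPM, also rose with Scutellaria at 190 µg/mL, by 0.50 ± 0.14 against vehicle (adjusted p = 0.00281) and 0.56 ± 0.14 against the low dose. With dried ginger CCDC24 was at 0.27 ± 0.14 and not called. Reads of the 2 genes cannot be told apart if counting ignored strand.

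**Figure D3:**
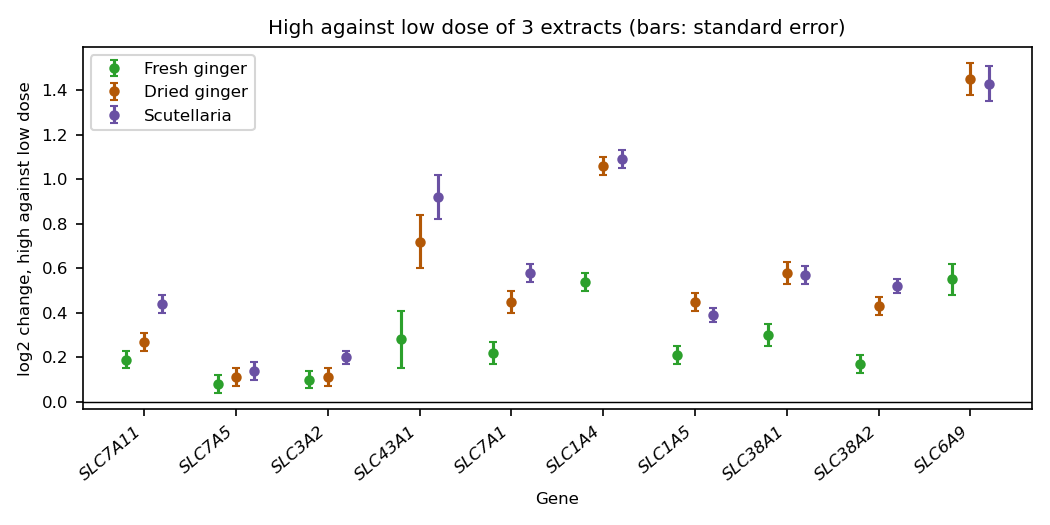
Log2 change from the low to the high dose (points, with bars for the standard error) of each carrier in fresh ginger, dried ginger and Scutellaria. For SLC6A9 the fresh ginger point lies at 0.55 and the dried ginger point at 1.45, while for SLC7A5 they lie at 0.08 and 0.11.

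Zingiberis Rhizoma Recens and Zingiberis Rhizoma are the drug names of fresh and dried rhizome of the same plant, and their extracts were given at the same doses, which allows a direct comparison. At 500 µg/mL 7 of the 10 carriers were higher with dried than with fresh ginger (22.5% of all genes called). The difference was 0.79 ± 0.06 on the log2 scale for SLC6A9 (adjusted p = 1.00e-10), 0.51 ± 0.04 for SLC1A4 (2.85e-10) and 0.48 ± 0.12 for SLC43A1 (adjusted p = 0.00315). SLC38A2 (0.30 ± 0.04), SLC38A1 (0.30 ± 0.05), SLC7A1 (0.24 ± 0.05) and SLC1A5 (0.21 ± 0.04) were also higher. The light chains SLC7A11 and SLC7A5 and their heavy chain SLC3A2 were not called: the difference was 0.11 for SLC7A11 (95% interval 0.01 to 0.20, adjusted p = 0.0876), 0.03 for SLC7A5 (-0.07 to 0.12) and 0.03 for SLC3A2 (-0.05 to 0.11). At 100 µg/mL (0.481% of all genes called) edgeR called 0 of 10 between the ginger extracts, with 3 at an unadjusted p under 0.05, and at 20 µg/mL (0%) 0 of 10, with 0 at an unadjusted p. DESeq2 called 0 at both. The change from low to high dose was itself larger with dried ginger for 6 carriers (11.2% of all genes called), by 0.90 ± 0.10 for SLC6A9 and 0.53 ± 0.06 for SLC1A4. The summed level of the epithelial markers also differed, at 3757 CPM in high-dose dried ginger, 5058 in high-dose fresh ginger, 5378 in high-dose Scutellaria and 6562 in vehicle, and its part in the carrier levels was not tested.

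The formulas were also set against each other at equal doses. At 500 µg/mL SLC38A1 was the one carrier called, higher in Sayeok-tang than in Bojungikgi-tang by 0.16 ± 0.04 on the log2 scale (adjusted p = 0.0279; 2.05% of all genes called). That call was kept in 3 of 10 alternatives and lost whichever library was left out, with adjusted p = 0.218 without replicate 2 of high-dose Bojungikgi-tang. All 10 differences at that dose were at or above 0.00, and 6 had an unadjusted p under 0.05. At 100 µg/mL (0.185% of all genes called) and 20 µg/mL (0.0179%) edgeR and DESeq2 called 0 of 10, with 3 and 0 at an unadjusted p under 0.05. The change from low to high dose differed between the formulas for 0 of 10 (0.275% of all genes called; 0 by DESeq2), with 4 at an unadjusted p under 0.05. For SLC6A9 that difference had a 95% interval of 0.07 to 0.68 before any adjustment, and for SLC7A5 one of -0.10 to 0.10.

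**Figure D4:**
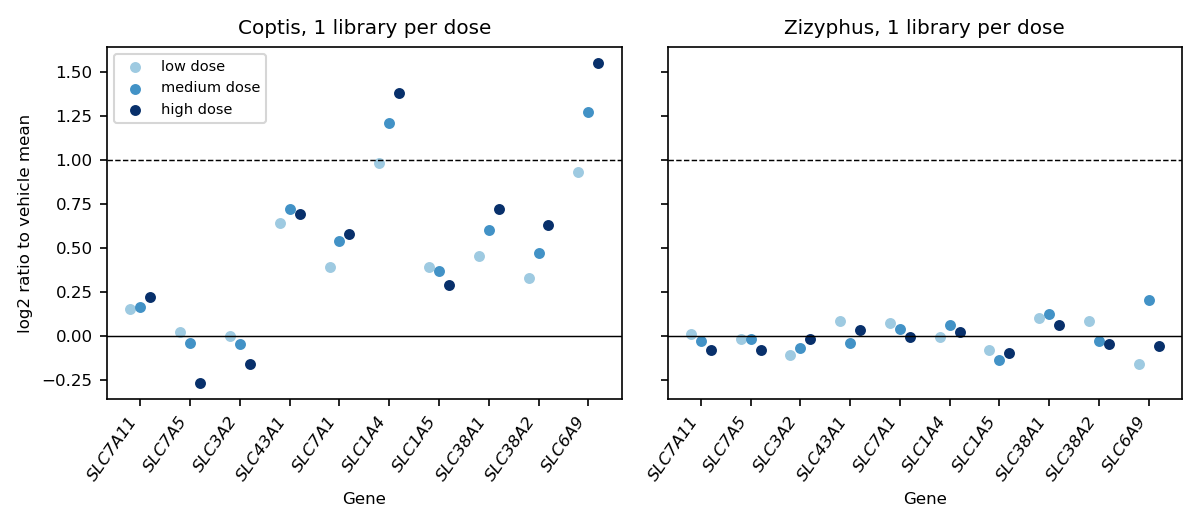
Log2 ratio of the CPM of each carrier to the vehicle mean in single libraries of Coptis and Zizyphus, with darker points for higher doses and a dashed line at 2-fold. In Coptis 8 carriers lie above 0 at the high and medium doses, led by SLC6A9 at 1.55, and in Zizyphus all points lie between -0.16 and 0.20.

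Coptis and Zizyphus had 1 library per dose, so their values carry no test and no replicate check. A gene was counted as changed when its ratio to the vehicle mean was at least 2-fold, it lay outside the vehicle range and it averaged at least 5 CPM, after adding 0.5 CPM. By that rule SLC1A4 and SLC6A9 were changed at the high (1.56% of all genes) and medium dose (0.620%) of Coptis and 0 carriers at its low dose (0.255%). SLC6A9 stood at 28.1, 23.1 and 18.1 CPM at 110, 22 and 4.4 µg/mL, against 9.06 to 9.61 in vehicle. SLC1A4 stood at 95.6, 84.4 and 72.0 CPM at those doses, against 35.6 to 36.8 in vehicle. Both lay clear of vehicle already at the lowest dose, with log2 ratios of 0.93 and 0.98. SLC38A1 (612, 562 and 509 CPM), SLC38A2 (417, 372 and 339) and SLC7A1 (211, 205 and 185) descended from high to low dose and stayed above every vehicle library. SLC1A5 ran the other way, with 646, 683 and 691 CPM from high to low dose, against at most 535 in vehicle. SLC7A11 was at 642, 616 and 610 CPM, and SLC43A1 at 6.42, 6.55 and 6.20 CPM, all above vehicle. SLC3A2 was below vehicle at the high and medium dose, at 994 and 1070 CPM, and inside its range at 1111 CPM at the low dose. SLC7A5 was below vehicle at the high dose, at 3387 CPM, and inside its range at the others, at 3972 and 4121. Mitochondrial transcripts took 9.92, 15.9 and 15.0% of counts in these Coptis libraries, and the epithelial marker sum was 3856, 4526 and 5377 CPM. Their part in the carrier levels was not tested. In Zizyphus 0 carriers met the rule at any dose (0.100, 0.100 and 0.118% of all genes from high to low), with log2 ratios from -0.16 to 0.20.

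The 10 carriers were then described beside the other carriers of the genome. A list of 24 further plasma membrane amino acid carriers had 12 or 13 members with enough counts to test. With dried ginger at 500 µg/mL 3 of these rose and 1 fell against vehicle. With Scutellaria at 190 µg/mL 3 rose and 2 fell. The medians were 0.00 and 0.02 on the log2 scale. These comparisons called 39.2% and 40.3% of all genes (20.2% higher only in both). SLC6A6, the taurine carrier, was the most abundant of these plasma membrane carriers at 211 CPM over all libraries. Against vehicle it rose with dried ginger from 183 ± 9.46 to 259 ± 2.56 CPM (0.50 ± 0.06, adjusted p = 2.80e-07) and with Scutellaria by 0.21 ± 0.03. It was also called higher than vehicle at the low doses of both, by 0.23 ± 0.06 and 0.14 ± 0.03. From low to high dose it rose by 0.26 ± 0.06 with dried ginger and was at 0.06 ± 0.03 with Scutellaria, not called. At the high doses against vehicle, SLC7A6 was at 0.01 ± 0.06 with dried ginger and -0.06 ± 0.04 with Scutellaria, neither called. It is a light chain partner of SLC3A2 for cationic and neutral amino acids. SLC36A4, a carrier of the proton-assisted family, was at -0.06 ± 0.07 with dried ginger and fell by 0.13 with Scutellaria (adjusted p = 0.0469). Of 17 carriers of lysosomal and mitochondrial membranes, all tested, 5 rose and 4 fell with dried ginger and 5 rose and 5 fell with Scutellaria. SFXN1, the mitochondrial serine carrier, fell by 0.22 with dried ginger and by 0.26 with Scutellaria, and SLC25A13, the aspartate-glutamate carrier, by 0.19 and 0.15. SLC25A39, a mitochondrial glutathione carrier, was at -0.09 ± 0.04 and 0.03 ± 0.04 and not called.

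**Figure D5:**
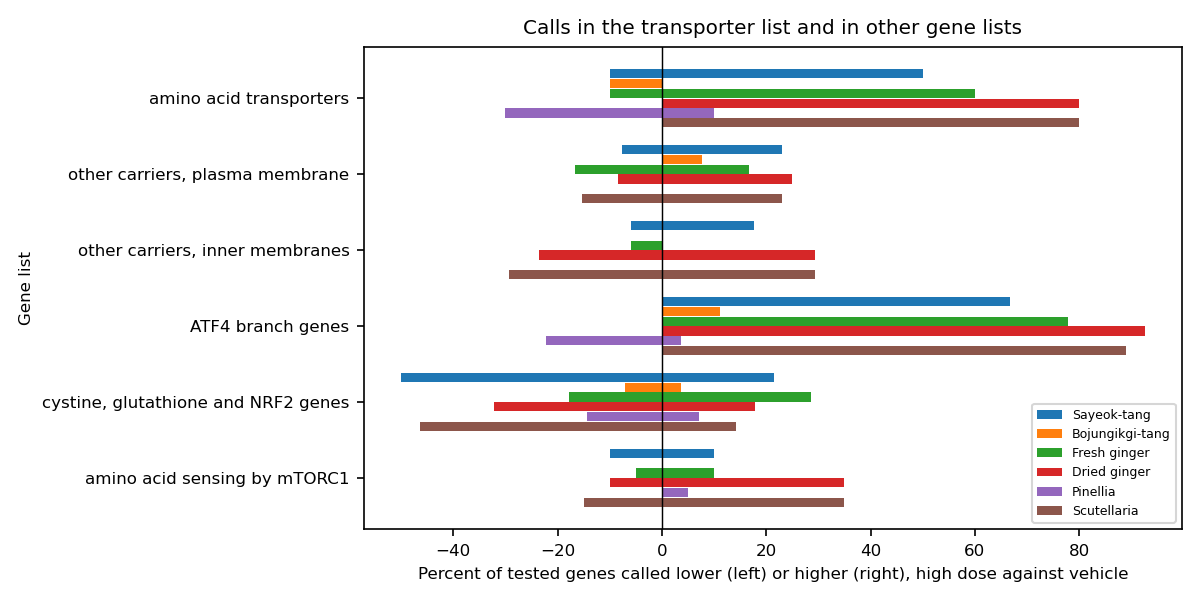
Percent of the tested genes of each list that edgeR called higher (right) or lower (left) than vehicle at the high dose of 6 extracts (colours). The transporter and ATF4 branch lists extend mainly to the right for dried ginger and Scutellaria, with 8 of 10 and 25 and 24 of 27 genes, and the NRF2 list extends to both sides.

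Genes of the ATF4 branch were counted in the same comparisons, and likeness to the carriers was not tested. Of 27 genes on that list, none of them a carrier, 25 rose with dried ginger at 500 µg/mL, 24 with Scutellaria at 190 µg/mL, 21 with fresh ginger, 18 with Sayeok-tang and 3 with Bojungikgi-tang against vehicle, with 0 lower. With Pinellia 1 rose and 6 fell. The medians of the list were 0.81, 0.99, 0.29, 0.21, 0.02 and -0.05 on the log2 scale, in that order. The share of all genes called higher was 20.2%, 20.2%, 6.21%, 9.39%, 1.39% and 3.85%, in the same order, and 5.08% were lower with Pinellia. ATF4 itself rose from 260 ± 6.91 CPM to 344 ± 10.5 with Scutellaria (0.41 ± 0.03, adjusted p = 1.58e-13), 332 ± 7.14 with dried ginger (0.35 ± 0.04) and 298 ± 3.36 with fresh ginger (0.20 ± 0.04), and was 0.08 ± 0.03 and not called with Sayeok-tang. Asparagine synthetase ASNS rose in all 4, from 127 ± 6.07 CPM to 275 ± 6.86, 265 ± 9.48, 189 ± 2.86 and 163 ± 0.985. The pseudokinase TRIB3 rose by 1.97 ± 0.04 with Scutellaria, 1.54 ± 0.05 with dried ginger, 0.64 ± 0.06 with fresh ginger and 0.43 ± 0.04 with Sayeok-tang. The glutathione-degrading enzyme CHAC1 rose by 1.69 ± 0.09, 1.56 ± 0.10, 0.79 ± 0.10 and 0.42 ± 0.11 in that order. DDIT3, which encodes the stress factor CHOP, rose by 1.84 ± 0.07, 1.09 ± 0.07 and 0.29 ± 0.07 with the first 3 and was at -0.13 ± 0.09 with Sayeok-tang. In the Coptis libraries TRIB3 stood at 301, 232 and 162 CPM from high to low dose, against 69.5 ± 5.60 in vehicle. These lists were chosen with results of these samples known and are not independent evidence of a direction.

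The list of cystine, glutathione and NRF2 genes, which has CHAC1 and CTH in common with the ATF4 branch list, did not share that direction. Of its 28 genes, 5 rose and 9 fell with dried ginger at 500 µg/mL, and 4 rose and 13 fell with Scutellaria at 190 µg/mL. With fresh ginger 8 rose and 5 fell, and with Sayeok-tang 6 rose and 14 fell. These comparisons called 39.2%, 40.3%, 13.4% and 18.9% of all genes. NFE2L2, which encodes NRF2, fell by 0.19 with dried ginger and was at -0.04 ± 0.04 with Scutellaria. KEAP1, its inhibitor and also on this list, fell by 0.38 and 0.37 (adjusted p = 1.03e-07 and 1.95e-08). At the low doses KEAP1 was already at -0.18 ± 0.05 with dried ginger, called lower, and at -0.13 ± 0.05 with Scutellaria, not called. From low to high dose its change was -0.20 ± 0.05 and -0.24 ± 0.05, both called. At the high doses against vehicle, GCLM was at 0.08 ± 0.04 with dried ginger and 0.06 ± 0.04 with Scutellaria. TXNRD1 was at -0.02 ± 0.04 with dried ginger and fell by 0.14 with Scutellaria. GCLM, TXNRD1 and HMOX1 are all on this list, and a link of any of them to the rise of SLC7A11 was not tested. With fresh ginger GCLM rose by 0.24 ± 0.04, close in size to SLC7A11 at 0.26 ± 0.04. HMOX1 rose by 0.29 ± 0.04 with dried ginger and 0.32 ± 0.04 with Scutellaria. A list of 20 genes around amino acid sensing and mTORC1 also held MTOR and RPTOR themselves. On it 7 rose with dried ginger and 7 with Scutellaria, with 2 and 3 lower. The share of all genes called was 39.2% and 40.3% (20.2% higher only in both). SESN2, a leucine-binding inhibitor of the mTORC1 pathway that is also on the ATF4 branch list, rose by 1.28 ± 0.08 and 1.54 ± 0.06.

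Across the 19 replicated groups, the 10 carriers were compared with 10973 genes that averaged at least 5 CPM, by Pearson's r of group mean log2 levels. Vehicle is 1 of these points. Most carriers are ordered mainly by the high doses of Scutellaria, both ginger extracts and Sayeok-tang, so r is a description. For SLC3A2 and SLC7A5 that order was weaker, with vehicle at rank 2 and 5 of the 19 groups. SLC1A4 was closest to DDIT4, SEL1L3 and GARS1 (r = 0.99 each), SLC6A9 to PCED1A and SEL1L3 (0.99) and STC2 (0.98), and SLC38A1 to ALDH1L2, IARS1 and BCAT1 (0.99 each). SLC43A1 was closest to TRIB3 and CEBPG (0.98) and AARS1 (0.97), and SLC7A1 to ZBTB21 (0.99), SESN2 and the carrier SLC38A1 (0.98). For SLC7A11 the closest genes were HYOU1, EDEM1 and SLC25A36 (0.97 each), and for SLC38A2 MIA2 and HSPA13 (0.97) and GFPT1 (0.96). SLC1A5 was closest to CCNY (0.97), EIF4EBP1 and SNHG29 (0.95). SLC3A2 had SPRYD3 (0.93), PHB2 and RAB32 (0.88), and SLC7A5 had CPSF4 (0.83), SBF2-AS1 (0.82) and CIB2 (0.81), the lowest values of the 10. Between carriers r ran from 0.29 for SLC7A5 with SLC38A2 to 0.98 for SLC1A4 with SLC6A9, SLC1A4 with SLC38A1 and SLC7A1 with SLC38A1. SLC7A5 had values of 0.29 to 0.64 with the other carriers.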

How the data were processed

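The authors deposited expected counts per gene, without normalisation or log transformation. Per the submitters' processing notes, reads were handled with FastQC 0.11.9, Trim Galore 0.6.5, STAR 2.7.3a and RSEM 1.3.3 on hg38 (GRCh38). Their annotation release is not given in the sources used here. Of 269 value columns 60 belong to this series, and the other 209 were not used. Counts were rounded, filtered (filterByExpr, minimum count 10), scaled by TMM and tested with edgeR 4.0.16 (robust quasi-likelihood, R 4.3.3) in 3 fits, each with the vehicle and 2 extracts. P-values were adjusted over all genes of a comparison, and 36 comparisons and 2 differences of dose changes were tested. Positions and lengths came from GENCODE 29. CPM use TMM factors over all 60 libraries. The 95% intervals are SE times the t quantile on residual degrees of freedom. All 10 genes were named. Of other lists, the 3 most abundant carriers and fixed regulators were named. The test was checked on simulated data. Replicate libraries differed by more than sampling noise. The members and lists were chosen with earlier results of these data known. Alternatives were DESeq2 1.42.0, other size factors, no filter, 1 fit of all libraries, the replicate block and leaving out each library.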

Additional observations from a re-analysis of the deposited data

Results flagged for a closer look

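For 6 carriers a test of the difference itself showed that the change from the low to the high dose was larger with dried than with fresh ginger. The log2 difference was 0.90 for SLC6A9 (adjusted p = 1.06e-07), 0.53 for SLC1A4 (adjusted p = 6.77e-07), 0.28 for SLC38A1 (0.0152), 0.26 for SLC38A2 (0.00295), 0.24 for SLC1A5 (0.0120) and 0.23 for SLC7A1 (adjusted p = 0.0406). At the low dose the ginger extracts had SLC6A9 at 10.0, 9.13 and 8.60 CPM (fresh) and 8.49, 8.28 and 8.96 CPM (dried), ranges that overlap. The SLC7A1 difference was kept in 8 of 17 alternatives, with an adjusted p of 0.107 without the second library of low-dose dried ginger. The cause was not tested.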

How the results depend on the processing

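No called value changed sign under any alternative run. Of 380 log2 values (10 carriers in 38 tests), 380 kept their side of the threshold with relative log expression size factors, 373 with no filter on low counts, 368 with DESeq2, 360 in 1 fit of all 60 libraries and 2188 of 2280 when 1 library was left out. With the replicate number as a replicate block, 377 did: the number of carriers called between Sayeok-tang and Bojungikgi-tang at 500 µg/mL was 0, against 1 without the block. That count was also 0 in 1 fit of all 60 libraries, 2 with DESeq2, and 0 to 0 when 1 library was left out. Same-numbered libraries deviated together (every correlation over 0.1) between high and low fresh ginger, medium and low Scutellaria, and high-dose dried and fresh ginger, and the block changed no call of a carrier there. Elsewhere it gave SLC7A5 calls in dried ginger, high against low, and in low-dose Pinellia against vehicle.

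Leaving out each library in turn, the carriers called against vehicle at the high dose numbered 4 to 7 with Sayeok-tang, 0 to 2 with Bojungikgi-tang, 6 to 7 with fresh ginger, 8 to 8 with dried ginger, 3 to 4 with Pinellia and 8 to 9 with Scutellaria. From low to high dose they numbered 4 to 5 with Sayeok-tang, 4 to 7 with fresh ginger, 8 to 10 with dried ginger and 10 to 10 with Scutellaria. Where 1 Bojungikgi-tang library remained, it was assumed to vary like the other groups. Depth limits SLC43A1 and SLC6A9 most, with as few as 69 and 141 counts.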
